A study of Caenorhabditis elegans with 10 samples.

Results

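Histone genes were taken as the block of 72 consecutive WormBase identifiers, WBGene00001875 to WBGene00001946, that was given to genes named *his-*. The table analysed here held a row for 11 of the 72, out of 18451 rows in all, and the other 61 identifiers were not analysed here. The rule that picks the members uses identifier numbers and no measured value. Neither the table nor the gene table at hand pairs single identifiers with names, so no histone class (H1, H2A, H2B, H3 or H4) was given to any row, and the label "histone" rests on the number block.

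Core histones are the proteins that DNA is wrapped around in nucleosomes, and H1 histones bind the linker DNA between them. Most histone genes of animals are small, lack introns and are expressed with DNA replication. Their messages end in a stem-loop bound by the stem-loop binding protein in place of a poly(A) tail. Replacement variants such as H3.3 are made outside S phase from ordinary polyadenylated messages, and are the form of histone that a neuron that no longer divides goes on making. In *C. elegans* larvae of the middle stages, the germ line and several somatic lineages still divide. The assay bears on this directly, since mRNA tagging recovers messages through the poly(A) binding protein.

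In the RefSeq annotation (WBcel235), 70 of the symbols *his-1* to *his-72* were listed, all protein-coding. Of these, 67 started within 5 kb of another, 63 spanned less than 500 bases, and 61 shared their exact length with another. The most frequent lengths were 384 bases (16 genes), 312 bases (15 genes), 411 bases (15 genes) and 372 bases (10 genes). Many members of the family are near-identical copies, and a probe that matches several copies reports their sum. How probes were assigned to copies is not given in the sources used here, so each row below is the signal of its probes and may hold RNA of more than 1 gene. The block was thinly covered, with rows for 15.3% of its identifiers against 62.5% of identifiers numbered up to 6500. Of 90 successive blocks of 72 numbers in that range, 14 had 11 rows or fewer, and the median block had 53.5. The cause of the thin coverage was not tested.

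The samples were L2/L3 larvae grown at 25 °C on *E. coli* strain Na22, with 1 Affymetrix tiling array each and 10 arrays in all. PVD/OLL samples came from *mec-3(e1338)* mutants (3 arrays) and from wild type, N2 (3 arrays). Whole-animal samples came from *mec-3(e1338)* mutants (2 arrays) and from N2 (2 arrays). For PVD/OLL, the poly(A) binding protein PAB-1, carrying a FLAG tag, was expressed from the *ser-2prom3B* promoter in PVD, a branched nociceptor of the body wall, and in OLL, sensory neurons of the head, and bound RNA was immunoprecipitated from lysate. Whole-animal samples were total RNA with no immunoprecipitation, and all samples were amplified and labelled with the same kits. The MEC-3 protein, a transcription factor of the LIM homeodomain class, acts in touch neurons and PVD, and the series was made to find genes it regulates in PVD. Cell type, immunoprecipitation and poly(A) selection cannot be told apart between the kinds of sample. Nor can separate normalization of each kind, if there was any, since the sources used here do not state it. Fewer cells that express a gene and less RNA per cell cannot be told apart either. Markers of PVD, OLL and other cell types, and *mec-3* itself, could not be read, since rows carry no names, so neither tissue nor genotype was checked.

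Values are log2 RMA values (background-corrected, normalized and summarised probe signal), where 1 unit is a 2-fold difference. Signals of different rows depend on their probes, so a high row is not known to have more RNA than a low one. The 11 rows nonetheless spanned nearly the whole signal range of the arrays. WBGene00001911 and WBGene00001909 lay at or above the 98.97th percentile of their array on all 10 arrays, with means over the 10 arrays of 13.68 and 13.21. WBGene00001946, WBGene00001945, WBGene00001915 and WBGene00001898 had means of 10.29, 10.04, 9.51 and 8.85. These 6 rows stood in the brightest quintile of rows by mean value. WBGene00001941 (7.81) and WBGene00001934 (7.57) stood in the next quintile and WBGene00001943 (6.32) in the middle one. WBGene00001944 and WBGene00001876 had means of 4.11 and 3.63 and stood in the dimmest quintile, with WBGene00001876 down to the 0.0623rd percentile. No detection calls were used here, so the last 2 rows are not known to be above background.

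**Figure D1:**
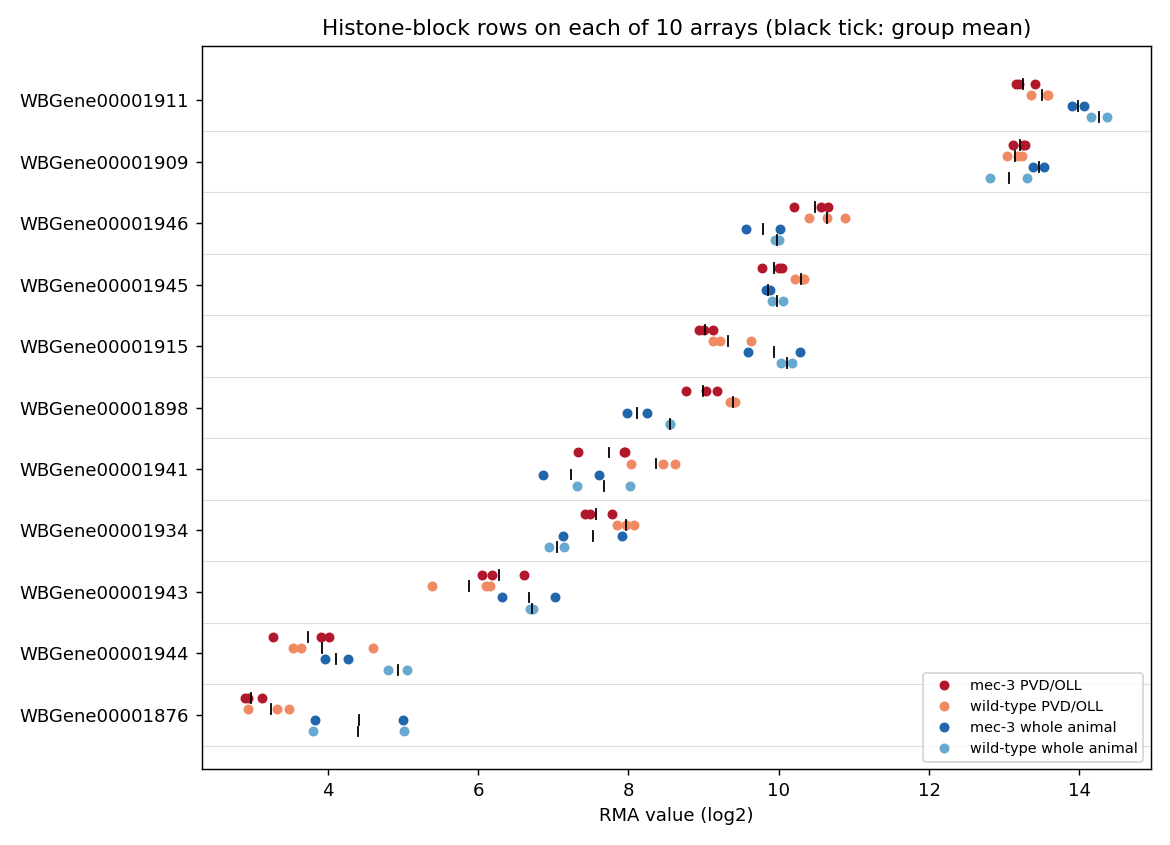
RMA values (log2, horizontal axis) of the 11 rows on each of the 10 arrays, with 1 point per array, coloured by group, and a black tick at each group mean. Rows are ordered by their mean, from WBGene00001911 at 13.68 to WBGene00001876 at 3.63, and differences between groups are small beside this range.

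The spread between replicates was smaller in the bright members than in the 2 dimmest. The SD within groups, pooled over the 4 groups, was 0.10 to 0.26 in the 6 rows of the brightest quintile, where the median row of that quintile had 0.27. It was 0.43 in WBGene00001944 and 0.52 in WBGene00001876, where the median row of the dimmest quintile had 0.30. Between these, WBGene00001934, WBGene00001941 and WBGene00001943 had 0.27, 0.40 and 0.37, where the median rows of their quintiles had 0.30, 0.30 and 0.32. No other row matched a member within 0.001 on all 10 arrays, so no 2 identifiers of the block carried the same measurement. WBGene00001944 alone among the members shared its exact value with other rows on some arrays. It did so with 6 rows on wild-type PVD/OLL replicate 2, 3 rows on *mec-3* PVD/OLL replicate 3, 6 rows on wild-type whole-animal replicate 2 and 1 row on *mec-3* whole-animal replicate 1. Only 31 rows of the table (0.168%) had such shared values on 4 or more arrays.

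The bright pair differed in how it compared between the kinds of sample. WBGene00001911 measured 13.20, 13.41 and 13.15 in *mec-3* PVD/OLL (replicates 1, 2 and 3), against 14.06 and 13.91 in *mec-3* whole animals. In wild type it measured 13.58, 13.57 and 13.36 in PVD/OLL, against 14.37 and 14.15 in whole animals. Every PVD/OLL array lay below every whole-animal array in value, yet the row stayed above the 99th percentile on all of them. By place on the array this order held within each genotype only. There *mec-3* whole-animal replicate 2, at the 99.537th percentile, stood below the wild-type PVD/OLL arrays, at 99.542 to 99.629. It was 1.66-fold lower in *mec-3* PVD/OLL (log2 difference -0.73, SE 0.20, limma adjusted p = 0.0245) and 1.69-fold lower in wild-type PVD/OLL (-0.76, SE 0.20, limma adjusted p = 0.0196). WBGene00001909 measured 13.12, 13.27 and 13.25 in *mec-3* PVD/OLL, against 13.53 and 13.38 in *mec-3* whole animals. In wild type it measured 13.23, 13.18 and 13.04 in PVD/OLL, against 13.31 and 12.82 in whole animals. The wild-type groups overlapped, and neither difference passed (-0.24 with a 95% interval of -0.72 to 0.23 in *mec-3*, and 0.09 with -0.39 to 0.56 in wild type). Probe signal this high was thus read in PVD/OLL samples as well as in whole-animal samples. Whether it came from polyadenylated messages was not tested.

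WBGene00001915 was the other bright row that was lower in PVD/OLL. It measured 9.12, 8.94 and 9.01 in *mec-3* PVD/OLL, against 10.29 and 9.59 in *mec-3* whole animals. In wild-type PVD/OLL it measured 9.13, 9.63 and 9.21, against 10.18 and 10.03 in whole animals. Within each genotype the PVD/OLL arrays lay below the whole-animal arrays, and it was 1.89-fold lower in *mec-3* (log2 difference -0.91, SE 0.26, limma adjusted p = 0.0247) and 1.72-fold lower in wild type (-0.78, SE 0.26, limma adjusted p = 0.0425).

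WBGene00001898 went the opposite way in both genotypes. It measured 9.04, 8.77 and 9.17 in *mec-3* PVD/OLL, against 8.25 and 7.99 in *mec-3* whole animals. In wild type it measured 9.36, 9.40 and 9.42 in PVD/OLL, against 8.55 and 8.55 in whole animals. All PVD/OLL arrays lay above all whole-animal arrays, also by place on the array, at the 81.9th to 88.99th percentile in PVD/OLL and at the 70.8th to 79.6th in whole animals. It was 1.83-fold higher in *mec-3* PVD/OLL (log2 difference 0.88, SE 0.21, limma adjusted p = 0.0128) and 1.79-fold higher in wild-type PVD/OLL (0.84, SE 0.21, limma adjusted p = 0.0140). These were the lowest adjusted p among the 11 rows in both comparisons.

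WBGene00001946 had the same order of arrays without passing the test. It measured 10.66, 10.21 and 10.57 in *mec-3* PVD/OLL, against 10.01 and 9.57 in *mec-3* whole animals. In wild type it measured 10.88, 10.64 and 10.41 in PVD/OLL, against 9.95 and 10.01 in whole animals. Here too all PVD/OLL arrays lay above all whole-animal arrays. The log2 difference was 0.69 in *mec-3* (SE 0.24, limma adjusted p = 0.0572) and 0.67 in wild type (SE 0.24, limma adjusted p = 0.0607), just outside the threshold of 0.05. It passed in both genotypes after quantile normalization (0.93 and 0.84, limma adjusted p = 0.0254 and 0.0308) and after centring of each array (0.81 and 0.75, limma adjusted p = 0.0355 and 0.0419). WBGene00001945, the next row by number, differed less: its log2 difference was 0.08 in *mec-3* (95% interval -0.35 to 0.51) and 0.31 in wild type (-0.12 to 0.74), and neither passed.

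WBGene00001934 passed in wild type. It measured 7.85, 7.96 and 8.08 in wild-type PVD/OLL, against 7.14 and 6.94 in wild-type whole animals, and was 1.89-fold higher (log2 difference 0.92, SE 0.26, limma adjusted p = 0.0231). In *mec-3* it measured 7.49, 7.42 and 7.78 in PVD/OLL, against 7.13 and 7.91 in whole animals. These groups overlapped, with the whole-animal arrays standing at either end (log2 difference 0.04, SE 0.26, limma adjusted p = 0.925). The difference between the genotypes in this respect did not pass (*mec-3* minus wild type, a difference of differences, -0.88, 95% interval -1.68 to -0.08, limma adjusted p = 0.459).

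WBGene00001941, WBGene00001943 and WBGene00001944 were less settled. WBGene00001941 had log2 differences of 0.50 in *mec-3* (95% interval -0.22 to 1.22) and 0.70 in wild type (-0.02 to 1.42), and neither passed. WBGene00001943 had differences of -0.39 (-1.07 to 0.29) in *mec-3* and -0.83 (-1.51 to -0.15, limma adjusted p = 0.0648) in wild type. WBGene00001944 measured 3.26, 3.91 and 4.02 in *mec-3* PVD/OLL, against 4.26 and 3.96 in *mec-3* whole animals. In wild type it measured 4.60, 3.54 and 3.64 in PVD/OLL, against 5.05 and 4.80 in whole animals. It was called lower in wild type (log2 difference -0.9999, limma adjusted p = 0.0493) and did not pass in *mec-3* (-0.38, limma adjusted p = 0.426).

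WBGene00001876, the dimmest member, had the largest differences and the largest spread. It measured 2.90, 2.93 and 3.12 in *mec-3* PVD/OLL, against 3.83 and 4.995 in *mec-3* whole animals. In wild type it measured 2.94, 3.32 and 3.48 in PVD/OLL, against 5.01 and 3.80 in whole animals. In each genotype 1 whole-animal array lay above the 22nd percentile and the other below the 2nd. It was called lower in *mec-3* PVD/OLL (log2 difference -1.43, SE 0.39, limma adjusted p = 0.0234) and in wild-type PVD/OLL (-1.16, SE 0.39, limma adjusted p = 0.0481). Rows this dim were lower in PVD/OLL in general: the median row of the dimmest quintile differed by -0.52 in *mec-3* and -0.48 in wild type. The 5th percentile of all values lay at 3.53 to 3.95 on PVD/OLL arrays and at 4.02 to 4.25 on whole-animal arrays. Relative to the median of the dimmest quintile, WBGene00001876 stood at -0.91 (*mec-3*) and -0.68 (wild type), and WBGene00001944 at 0.14 and -0.52. The calls of both rows were not tested against that median.

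Counted over the block, 1 of 11 rows was higher and 3 were lower in *mec-3* PVD/OLL than in *mec-3* whole animals, where 7.59% of all rows were called higher and 19.1% lower (26.7% in all). In wild type 2 of 11 rows were higher and 4 lower, where 9.61% and 18.9% of all rows were (28.6% in all). WBGene00001898, WBGene00001911, WBGene00001915 and WBGene00001876 were called in both genotypes, with the same sign in each. Called or not, 10 of 11 rows had the same sign in both genotypes, against 79.5% of all rows. The share of all rows called in both was not counted, and both comparisons share 1 estimate of the spread. In *mec-3* the median difference of the 11 rows was -0.24, against -0.28 for all rows, and in wild type it was 0.09, against -0.21. The split depended on the scaling. After quantile normalization the medians were 0.10 (*mec-3*) and 0.33 (wild type), with all rows at 0.02 and 0.03. The called rows were then WBGene00001898 and WBGene00001946, both higher, in *mec-3*, and WBGene00001898, WBGene00001934 and WBGene00001946, higher, and WBGene00001911, lower, in wild type. WBGene00001911 then differed by -0.43 in *mec-3* (limma adjusted p = 0.135), and WBGene00001915 by -0.69 (*mec-3*) and -0.71 (wild type) (limma adjusted p = 0.0749 and 0.0592). The dim WBGene00001876 differed by -1.05 (*mec-3*) and -0.82 (wild type) (limma adjusted p = 0.102 and 0.173), and WBGene00001944 in wild type by -0.52 (limma adjusted p = 0.379). The groups did not overlap in 6 of 11 rows in *mec-3* (63.4% of all rows) and in 10 of 11 in wild type (51.5% of all rows). Histone rows thus stood on both sides of 0 with and without this scaling.

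**Figure D2:**
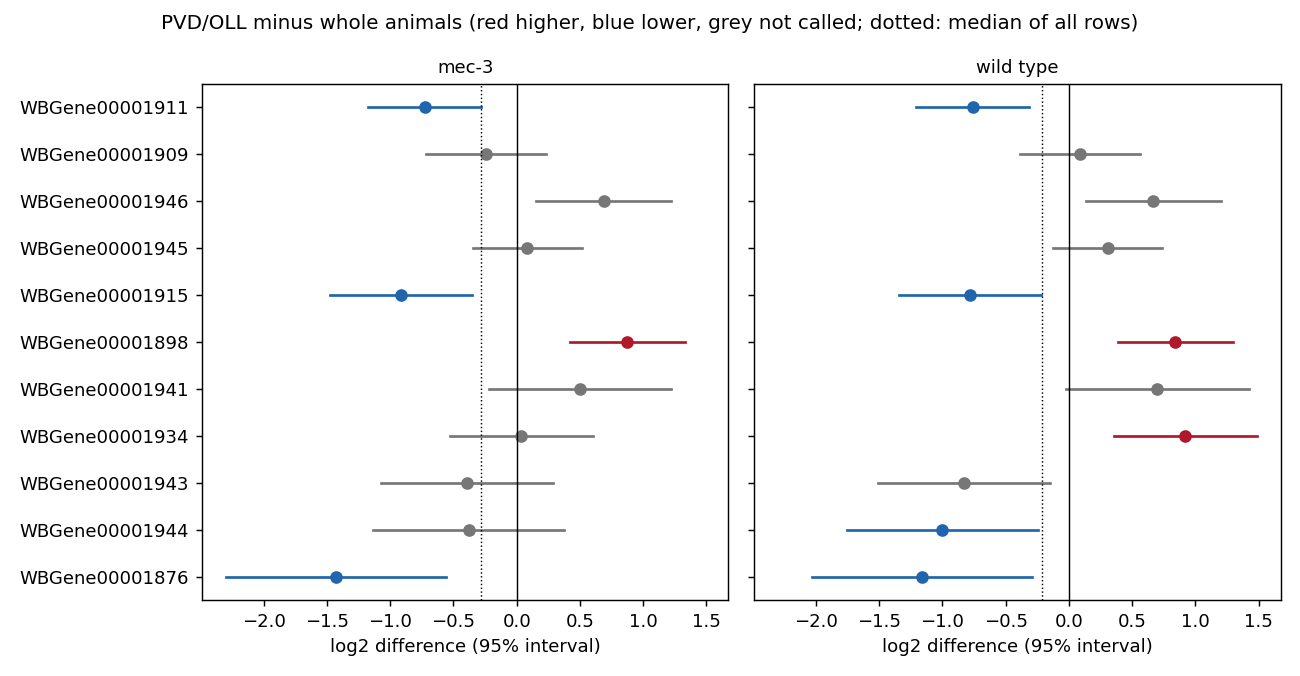
Log2 difference of PVD/OLL minus whole animals for the 11 rows in *mec-3* (left) and wild type (right), with 95% intervals from the limma fit; red rows were called higher, blue lower and grey not called, and the dotted line is the median of all rows (-0.28 and -0.21). WBGene00001898 lies right of 0 and WBGene00001911, WBGene00001915 and WBGene00001876 lie left of it in both panels.

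The 6 rows of the brightest quintile stood on both sides of its median. All rows of that quintile had a median difference of -0.15 (*mec-3*) and 0.05 (wild type). Relative to these medians, WBGene00001898 stood at 1.03 (*mec-3*) and 0.79 (wild type), and WBGene00001946 at 0.84 and 0.61. WBGene00001911, by contrast, stood at -0.58 (*mec-3*) and -0.81 (wild type), and WBGene00001915 at -0.76 and -0.83. WBGene00001945 stood at 0.24 (*mec-3*) and 0.25 (wild type), and WBGene00001909, close to the median, at -0.090 and 0.034. In *mec-3* the 2 brightest rows lay below the median and 3 of the other 4 above it. In wild type WBGene00001909, the second brightest, lay slightly above the median instead. Whether the side goes with the signal was not tested.

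**Figure D3:**
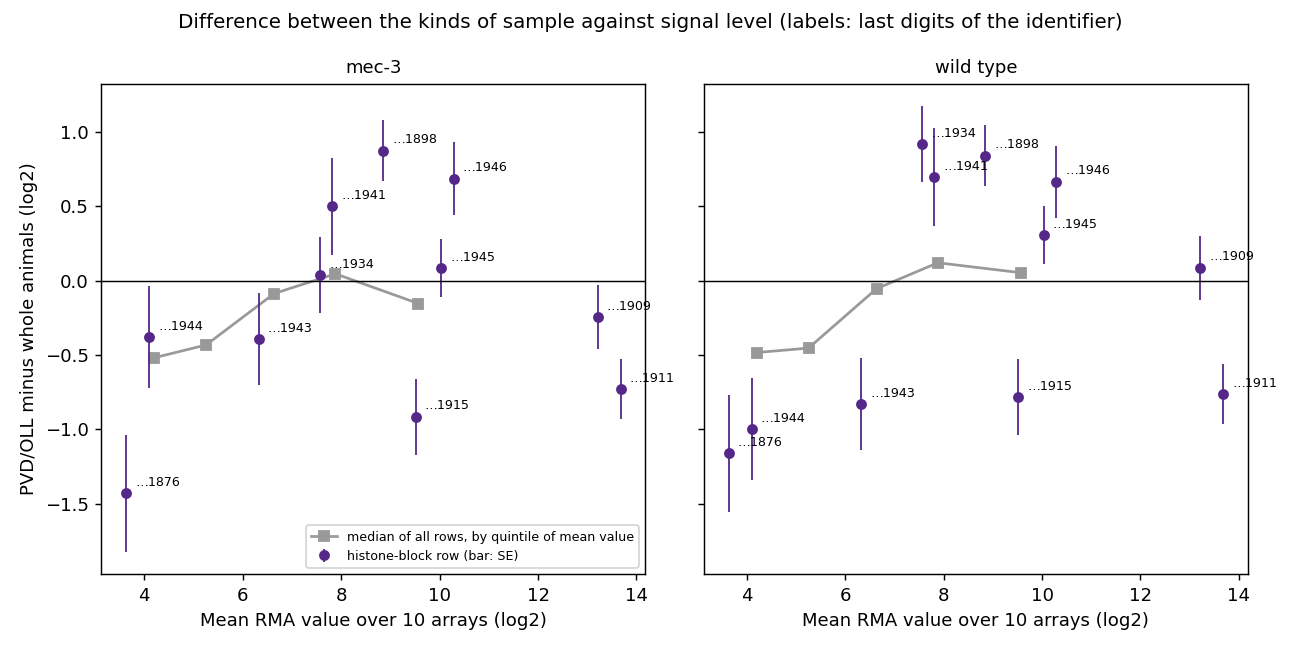
Difference of PVD/OLL minus whole animals (log2, vertical axis, bars are SE) against the mean RMA value over 10 arrays (log2, horizontal axis) for the 11 rows in *mec-3* (left) and wild type (right), labelled by the last digits of the identifier. Grey squares give the median of all rows in each quintile of mean value, which runs from -0.52 and -0.48 in the dimmest quintile to -0.15 and 0.05 in the brightest.

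The calls depended on single arrays in the whole table and among the histone rows, and the counts did not always move alike. Without wild-type PVD/OLL replicate 3, more rows of the table were called lower in wild type, while fewer histone rows were called. Of all rows, 26.7% were called in *mec-3* with all arrays, and 15.9%, 17.2% and 15.2% without *mec-3* PVD/OLL replicate 1, 2 or 3. In wild type 1773 were called higher and 3496 lower with all arrays. Without wild-type PVD/OLL replicate 1, 2 or 3 these were 1433 and 2425, 1234 and 2548, and 1759 and 3884. Without a whole-animal array, 1 array of its group remains, so counts of called rows are not given for those fits. The 4 histone rows called in *mec-3* became 1, 2 and 0 when *mec-3* PVD/OLL replicate 1, 2 or 3 was left out. The 6 histone rows called in wild type became 4, 3 and 4 when wild-type PVD/OLL replicate 1, 2 or 3 was left out. They also became 4, 3 and 3 when *mec-3* PVD/OLL replicate 1, 2 or 3, which enters that fit only through the spread, was left out. Without those *mec-3* PVD/OLL replicates, 1472 to 1489 rows of the table were called higher and 2982 to 2999 lower in wild type. Of the histone rows called in both genotypes, WBGene00001898 was lost least often. In *mec-3* it was lost when PVD/OLL replicate 3 (0.79, limma adjusted p = 0.0507) or whole-animal replicate 2 (0.74, limma adjusted p = 0.0922) was left out, and in wild type when whole-animal replicate 2 was (0.84, limma adjusted p = 0.0601).

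WBGene00001911 was lost in wild type for 1 array, whole-animal replicate 1 (-0.65, limma adjusted p = 0.0771). In *mec-3* it was lost for 4 arrays, PVD/OLL replicates 1 and 3 and both whole-animal replicates (limma adjusted p = 0.0728 to 0.133). WBGene00001934 was lost in wild type for PVD/OLL replicate 2 (limma adjusted p = 0.0528) and whole-animal replicate 2 (limma adjusted p = 0.123). WBGene00001915 was lost for 4 arrays in *mec-3* (limma adjusted p = 0.0527 to 0.214) and for 7 in wild type (0.0609 to 0.133), and WBGene00001944 for 8 in wild type (0.0613 to 0.166). In *mec-3*, the difference of WBGene00001915 was -0.56 in place of -0.91 without whole-animal replicate 1. WBGene00001876 was lost for 4 arrays in *mec-3* and 7 in wild type, and moved to -0.85 without *mec-3* whole-animal replicate 2 (limma adjusted p = 0.210) and to -0.56 in wild type without whole-animal replicate 1 (limma adjusted p = 0.336). WBGene00001946 was gained in both genotypes without wild-type PVD/OLL replicate 3 (limma adjusted p = 0.0461 in *mec-3* and 0.0402 in wild type). Whichever array was left out, the rows called with all arrays kept their sign.

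**Figure D4:**
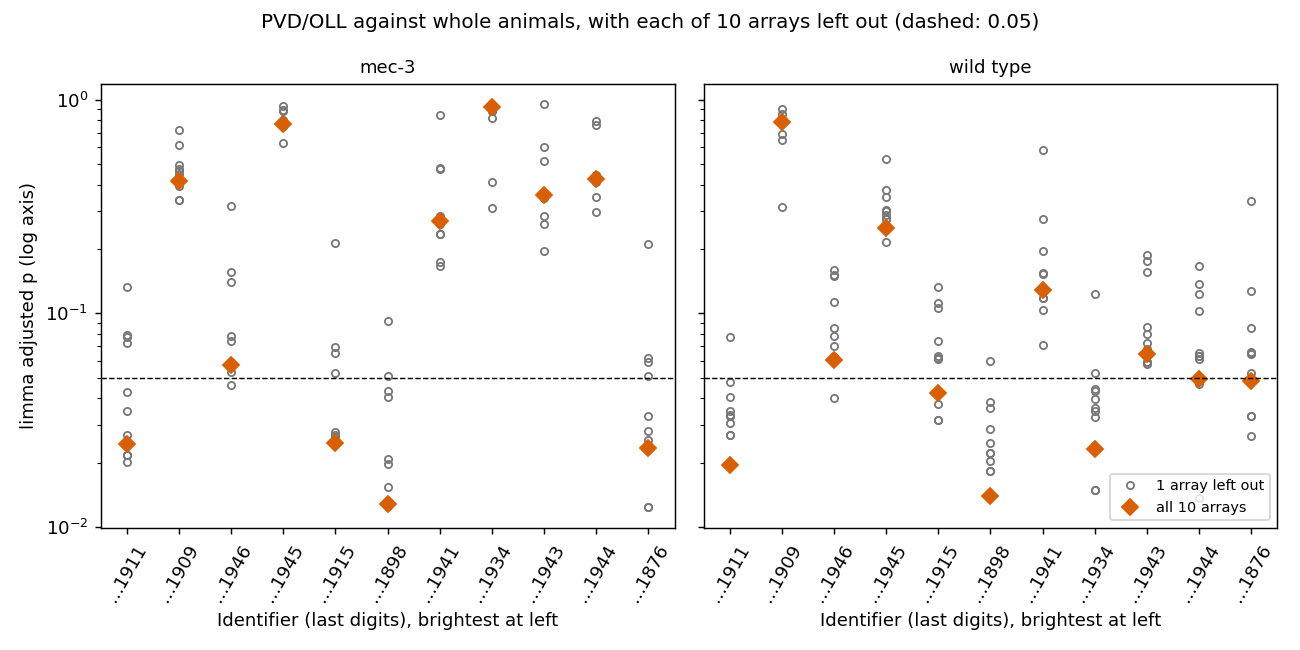
limma adjusted p (log axis) of the PVD/OLL against whole-animal difference for each of the 11 rows in *mec-3* (left) and wild type (right); orange diamonds use all 10 arrays, open circles leave out 1 array each, and the dashed line is 0.05. WBGene00001898 has the lowest diamond in both panels, at 0.0128 and 0.0140.

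Between genotypes, no histone row was called. In PVD/OLL 0 of 11 rows differed between *mec-3* and wild type (limma, 6 arrays), where 6.13% of all rows were called, and 1 of 11 had an unadjusted p under 0.05, where 21.1% of all rows had. In whole animals 0 of 11 differed (limma, 4 arrays), where 5.54% of all rows were called, and again 1 of 11 had an unadjusted p under 0.05, where 21.5% of all rows had. A count of 0 among 11 is near those backgrounds. The lowest limma adjusted p was 0.191 in PVD/OLL and 0.162 in whole animals.

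The intervals, given per row and not adjusted for the number of rows, bound the difference in row signal and not a change in any single gene. In PVD/OLL the 95% interval of 9 of the 11 rows lay within 2-fold in either direction, which held for 67.1% of all rows. The exceptions were WBGene00001941 (-1.20 to -0.06) and WBGene00001943 (-0.21 to 1.01). Among the 9 are the dim WBGene00001876 and WBGene00001944, which are not known to be above background. For the brightest rows the interval was narrow: the difference of WBGene00001909 was 0.06 (-0.32 to 0.45) and that of WBGene00001911 was -0.25 (-0.65 to 0.15). With 2 arrays a genotype, whole animals gave wider intervals, and 5 of 11 lay within 2-fold (35.1% of all rows).

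Most histone rows in PVD/OLL nonetheless stood a little below wild type in *mec-3*. Of the 11, 9 had a difference below 0, against 57.1% of all rows, with a median of -0.26 against -0.07 over all rows. The median over all rows depended on signal: it was -0.15 in the dimmest quintile and 0.11 in the brightest, which holds 6 of the 11. The histone rows were not tested against these medians. The groups did not overlap in 5 of 11 rows, against 27.4% of all rows: WBGene00001898, WBGene00001915, WBGene00001934, WBGene00001941 and WBGene00001945, all with *mec-3* the lower. WBGene00001941 measured 7.33, 7.93 and 7.95 in *mec-3*, against 8.03, 8.62 and 8.46 in wild type (log2 difference -0.63, SE 0.25, limma adjusted p = 0.191). WBGene00001898, with the values given above, differed by -0.40 (SE 0.18, limma adjusted p = 0.253). WBGene00001945 measured 10.00, 9.77 and 10.04 in *mec-3*, against 10.33, 10.33 and 10.21 in wild type (-0.35, SE 0.17, limma adjusted p = 0.289). None of these differences passed.

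In whole animals 8 of 11 rows lay below 0, against 52.5% of all rows, with a median of -0.17 against -0.03 over all rows. Here the median over all rows was -0.12 in the dimmest quintile and 0.31 in the brightest. The groups did not overlap in 5 of 11 rows, against 50.5% of all rows. WBGene00001944 had the lowest adjusted p, at 4.26 and 3.96 in *mec-3* against 5.05 and 4.80 in wild type (log2 difference -0.81, SE 0.28, limma adjusted p = 0.162). WBGene00001898 measured 8.25 and 7.99 in *mec-3*, against 8.55 and 8.55 in wild type (-0.43, SE 0.27, limma adjusted p = 0.433), so its *mec-3* arrays lay below the wild-type arrays in both kinds of sample. The 2 genotype differences, which share no arrays, had the same sign in 8 of 11 rows, against 68.6% of all rows.

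**Figure D5:**
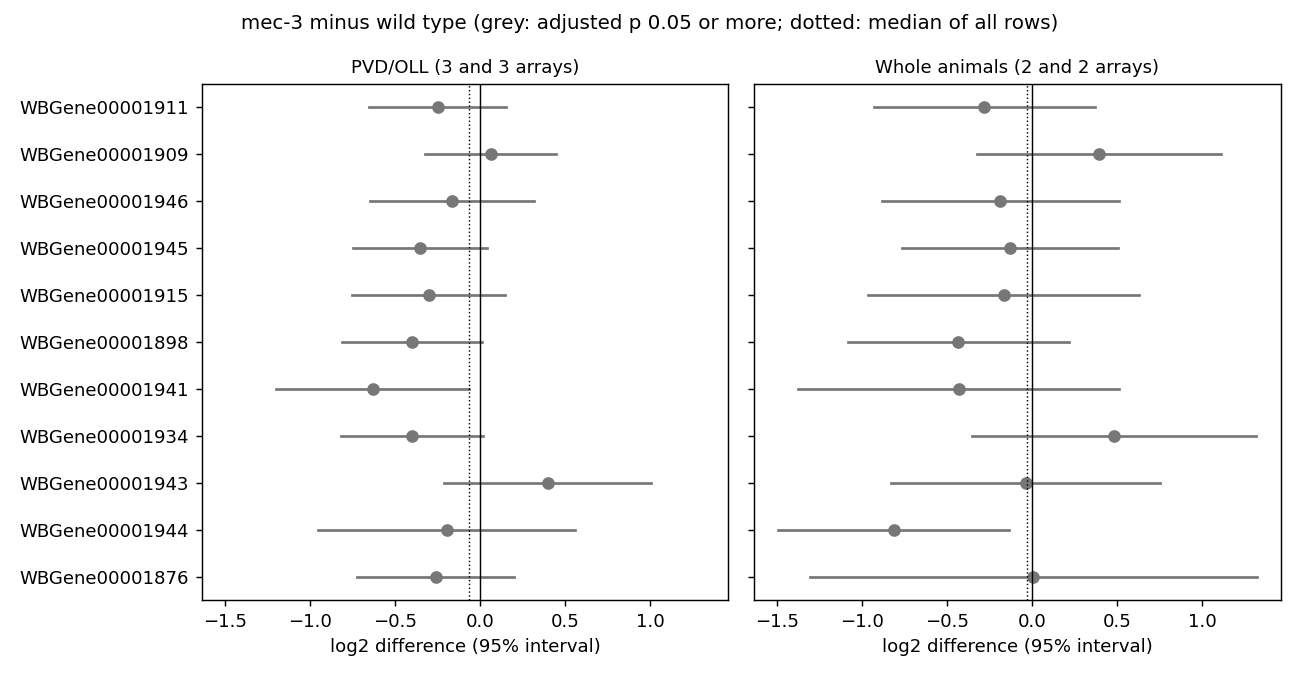
Log2 difference of *mec-3* minus wild type for the 11 rows in PVD/OLL (left) and whole animals (right), with 95% intervals from the limma fit; grey marks rows that were not called, and the dotted line is the median of all rows (-0.07 and -0.03). All 11 rows are grey in both panels, and the right panel has the wider intervals.

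The genotype difference of PVD/OLL minus that of whole animals, a difference of differences, was tested over all 10 arrays. Of the histone rows 0 of 11 passed (limma), where 0.00542% of all rows did, and 1 of 11, WBGene00001934, had an unadjusted p under 0.05, where 9.80% of all rows had. It lay between -0.88, in WBGene00001934, and 0.62, in WBGene00001944 (95% interval -0.45 to 1.69). The interval lay within 2-fold in either direction in 6 of 11 rows, against 27.04% of all rows.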

How the data were processed

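The authors deposited 1 log2 value per gene identifier and array, made with RMA (no version stated), per the submitters' processing notes. The log2 scale was read from the values. Not given in the sources used here are the gene models, build, probe assignment, filters and whether both kinds of sample were normalized together. No PVD/OLL array shared an exact value in any row with a whole-animal array, while 2 arrays of the same kind of sample shared 1 to 9. Whether this reflects separate normalization was not tested. The table held 18451 rows with 0 missing values and 0 columns of other samples. Array medians lay between 6.51 and 6.77, and replicate arrays of a group correlated at 0.952 to 0.984. The number of arrays limits the precision.

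Linear models from limma (version 3.58.1, under R 4.3.3; lmFit, then eBayes) were fitted over the whole table, two-sided, with Benjamini-Hochberg adjustment over all 18451 rows and calls at adjusted p under 0.05. The genotype comparisons used the arrays of 1 kind of sample (6 and 4). The others used 1 mean for each group over all 10 arrays. The fits were also run on simulated data with independent normal noise in each row and 200 changed rows. These data held no difference in scale between the kinds of sample, and the outcome is not reported here. Titles number the samples as biological replicates.

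The RefSeq table (46926 rows) holds 0 of the identifiers. The lists of histone chaperones, replication genes and cell type markers, and the rule naming replacement variants by symbol, were therefore not used. Of the naming rule, the called rows, the brightest and dimmest 3 and their values remained, and the other members were added so that all 11 are described. Members and lists were chosen with earlier results of these data known. Alternatives were quantile normalization, centring on array medians, leaving out the lower 50% of rows, array weights, a robust prior with an intensity trend, other arrays in the fit, adjusted p under 0.10, a replicate block and each array left out.

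The labels do not say that a replicate number marks a shared batch, and the numbers were not taken as pairs. RefSeq was used for gene counts and lengths only.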

Additional observations from a re-analysis of the deposited data

How the results depend on the processing

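The counts of 0 called histone rows between genotypes, and of 0 for the difference of differences, held under every alternative run. Percentages in brackets are shares of all rows called. The count of 4 (26.7%) for PVD/OLL against whole animals in *mec-3* was 2 after quantile normalization (19.5%) and with a replicate block (24.7%). It was 5 with the intensity trend and robust prior (27.1%), array weights (36.9%) and adjusted p under 0.10 (37.4%). Leaving out a PVD/OLL array gave 0 to 5. The count of 6 (28.6%) in wild type was 1 with array weights (19.9%) and the block (25.2%), and 0 with the 5 wild-type arrays alone (13.3%). It was 7 with the trend (28.5%), 8 at adjusted p under 0.10 (39.2%), and 3 to 4 without a PVD/OLL array. Same-numbered samples had deviations from their group means that correlated at -0.058, 0.031 and 0.038 between the PVD/OLL groups. Wild-type PVD/OLL and whole animals gave 0.186 for replicate 1, the highest of all pairs, and -0.028 for replicate 2, and *mec-3* PVD/OLL and whole animals -0.0016 and 0.0092. These values did not meet the bar for pairing (every pair over 0.1), and the block was not used in the main fits. Why calls were lost under the block was not tested. Quantile normalization moved the split of called histone rows from 1 higher and 3 lower to 2 and 0 in *mec-3*. In wild type the split went from 2 and 4 to 3 and 1. Over all rows the split was then 1900 higher and 1702 lower in place of 1400 and 3521 (*mec-3*), and 2439 and 2216 in place of 1773 and 3496 (wild type). Of 799 values of single rows under alternatives, 684 kept sign and side of the threshold, 68 lost a call, 11 gained one and 36 changed sign. None of the sign changes involved a called value. Only the calls of the main fits (4 and 6) could be lost, so the 68 are not a share of 799. The 684 include comparisons with no call to lose.

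Sign changes outside left-out arrays were those of WBGene00001909 (-0.10 for *mec-3* minus wild type in PVD/OLL and 0.16 for PVD/OLL minus whole animals in *mec-3*), WBGene00001944 (0.10 for PVD/OLL minus whole animals in *mec-3*) and WBGene00001915 (0.016 for the difference of differences), all after quantile normalization. WBGene00001943 gave 0.036 after quantile normalization and 0.022 after centring for *mec-3* minus wild type in whole animals, WBGene00001934 gave -0.045 with the replicate block for PVD/OLL minus whole animals in *mec-3*, and WBGene00001911 gave -0.0094 with array weights for the difference of differences. With an array left out, the sign also changed in the following ranges. *mec-3* minus wild type gave -0.39 to 0.14 for WBGene00001944 in PVD/OLL, and in whole animals -0.60 to 0.61 for WBGene00001876, -0.52 to 0.18 for WBGene00001915, -0.39 to 0.32 for WBGene00001943 and -0.41 to 0.036 for WBGene00001946. PVD/OLL minus whole animals gave -0.35 to 0.43 for WBGene00001934 in *mec-3* and -0.16 to 0.33 for WBGene00001909 in wild type. The difference of differences gave -0.49 to 0.22 for WBGene00001915, -0.078 to 0.14 for WBGene00001911, -0.20 to 0.24 for WBGene00001946, -0.57 to 0.17 for WBGene00001941, -0.10 to 0.17 for WBGene00001898 and -0.87 to 0.34 for WBGene00001876. The cause of these changes was not tested. Rows near background have no detection limit here, and 2 or 3 arrays a group limit every call.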
